A study of Arabidopsis thaliana with 9 samples.

Results

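The 10 genes described here build root hairs in Arabidopsis thaliana: the transcription factor genes RHD6 and RSL4, the expansin genes EXPA7 and EXPA18, COBL9, the oxidase gene RHD2, the extensin-type genes LRX1 and LRX2, and the proline-rich protein genes PRP1 and PRP3. They were taken by locus from a table of 27647 loci, and all 10 were in it. Messenger RNA of whole seedlings was sequenced in 9 libraries, 3 for each of 3 groups, at an age of 5 days after growth at 22 °C in days of 16 h of light and nights of 8 h. The groups were untreated wild-type Col-0, MIR394A OE, which overexpresses a microRNA gene, and Col-0 plants on medium with 2 µM Brz, a compound whose name the labels do not spell out. All groups had the same cold treatment of the seeds, 4 days at 4 °C. The labels give neither the promoter of the overexpressor nor the number of lines, and do not say whether replicates were separate growths. The p-values below thus set differences between groups only against the spread of these libraries, part of which may be technical. The title of the series asks how miR394 acts on brassinosteroid signalling and hypocotyl growth. Root hair genes are a readout of the roots that were harvested along with the hypocotyls.

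A root hair is a tube that grows from a single epidermal cell of the root and takes up water and nutrients. Cells that express the homeodomain gene GL2 stay hairless, and in the remaining files of cells the basic helix-loop-helix protein RHD6 starts hair development and switches on later factors such as RSL4, which sets hair growth. The tube elongates only at its tip, where expansins loosen the wall, the NADPH oxidase RHD2 (also called RBOHC) makes reactive oxygen species, and COBL9, a protein anchored to the outside of the membrane, is needed for oriented cellulose deposition. The LRX extensins and the proline-rich proteins are structural proteins of the hair wall, and plants that lack LRX1 and LRX2 form collapsed hairs.

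Many hair genes carry a root hair element in the promoter, a motif first described in EXPA7 and related genes and bound by RSL4. The elements are shown because they are rare among promoters of the genome and part of the 10 genes carry one. The log2 fold changes of the carriers with Brz, most of them not called, also differed in sign below. The 250 bases before each annotated start were read from TAIR10.1, and both strands were searched for the root hair element. It was present in 5 of the 10 genes and in 207 of the 27443 promoters of protein-coding genes (0.754%). Since the motif was defined on hair genes, this share describes the genes and is not independent of how they came to be known. The elements stand in capitals with 12 bases on either side, in the direction of the gene:
EXPA7: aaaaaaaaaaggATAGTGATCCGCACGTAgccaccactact
EXPA18: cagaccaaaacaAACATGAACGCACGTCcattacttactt
LRX1: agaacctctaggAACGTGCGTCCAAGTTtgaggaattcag
PRP1: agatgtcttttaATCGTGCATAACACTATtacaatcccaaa
PRP3: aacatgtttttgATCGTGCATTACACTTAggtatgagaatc

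These windows lie on the + strand at chr1:4276415-4276455 (EXPA7), chr1:23331511-23331550 (EXPA18), chr1:4069887-4069926 (LRX1), chr1:20504760-20504800 (PRP1) and chr3:23182543-23182583 (PRP3). The EXPA7 element begins 78 bases and the EXPA18 element 40 bases before the start, both on the coding strand. In LRX1, PRP1 and PRP3, at 93, 129 and 167 bases, the element lies on the opposite strand. The core of the motif, TGNNN or TGNNNN followed by GCACG or TCACG, was found in 1130 promoters (4.12%) and in 6 of the 10 genes, which adds COBL9, with its core in capitals on the - strand of chr5:19974555-19974589:
COBL9: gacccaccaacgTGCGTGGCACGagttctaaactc

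RHD6, RSL4, RHD2 and LRX2 had neither form within this window, which says only that these letters are not there. Of the elements that brassinosteroid-regulated BZR1 proteins are known to bind, CGTGTG was present in 1 of the 10 genes (PRP1) against 5.37% of promoters. CGTGCG was present in 4 (EXPA7, EXPA18, COBL9 and LRX1) against 1.57%, and its letters can overlap the reverse complement of the core. The E-box CANNTG, the site of basic helix-loop-helix proteins, was present in 5 of the 10 genes and in 55.3% of promoters.

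Of the 10 genes, 7 lie on chromosome 1, PRP3 on chromosome 3, and COBL9 and RHD2 on chromosome 5, and each has 1 annotated transcript. EXPA7 (AT1G12560) spans chr1:4276505-4277969 and EXPA18 (AT1G62980) chr1:23331563-23333246, both in 3 exons on the + strand. LRX1 (AT1G12040, chr1:4069992-4072681) and LRX2 (AT1G62440, chr1:23112933-23115293) have a single exon. PRP1 (AT1G54970, chr1:20504901-20506504) and PRP3 (AT3G62680, chr3:23182722-23184042) have 2 exons. RHD6 (AT1G66470) lies at chr1:24795214-24797015, RSL4 (AT1G27740) at chr1:9654475-9656089, COBL9 (AT5G49270) at chr5:19971884-19974530 and RHD2 (AT5G51060) at chr5:20757199-20762461. The pairs are relatives: coding sequences were identical at 75.4% of aligned bases for EXPA7 and EXPA18, 78.2% for LRX1 and LRX2, 83.8% for PRP1 and PRP3, and 60.4% for RHD6 and RSL4. No stretch of 50 bases of any of the 10 transcripts occurred in a transcript of another gene. EXPA7 and EXPA18 each overlap a gene on the opposite strand (AT1G12570 and AT1G62978). With strand use in counting not given in the sources used here, reads in the shared stretch cannot be told from those of these partners. The length of the overlap was not measured.

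Depth was similar in all libraries, between 21.4 and 22.0 M reads by a fit to the steps of low values. The deposited values were FPKM, fragments scaled by transcript length and library depth. Levels of different genes can be compared only roughly, since differences between groups still followed transcript length, as given below. Markers of the shoot and of every root layer listed were detected in every library, as the labelled tissue contains shoot and root: 5 green shoot genes summed to 28160 to 39790 FPKM, and 8 endodermis genes to 87.47 to 171.2 FPKM. In Brz-treated against untreated Col-0, log2 fold changes of all genes fell with transcript length (rank correlation -0.67 across genes, which are not independent, against -0.15 for MIR394A OE). Transcripts of the 10 genes run from 1117 bases (EXPA7) to 3289 bases (RHD2), so results against Brz are given with and without that trend.

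PRP3 was the most abundant transcript and the transcription factors were the least abundant. Over the 9 libraries the mean was 64.8 FPKM for PRP3, 21.98 for PRP1, 14.03 for EXPA18, 11.4 for EXPA7, 8.20 for LRX1, 4.51 for LRX2, 3.32 for COBL9, 1.29 for RHD2, 0.92 for RHD6 and 0.84 for RSL4. PRP3 exceeded PRP1, LRX1 exceeded LRX2 and COBL9 exceeded RHD2 in each of the 9 libraries. Other neighbours in this order changed places. PRP1 stood above EXPA18 in the 6 libraries without Brz and below it in the 3 with Brz, and LRX2 stood above COBL9 in the same 6 and below it in the same 3. EXPA7 and LRX1, and RHD6 and RSL4, changed places between libraries of the same group. RHD6 and RSL4 rested on few reads, about 10 to 38 and 8 to 47 per library, so their relative counting error is larger than that of the abundant genes.

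**Figure D1:**
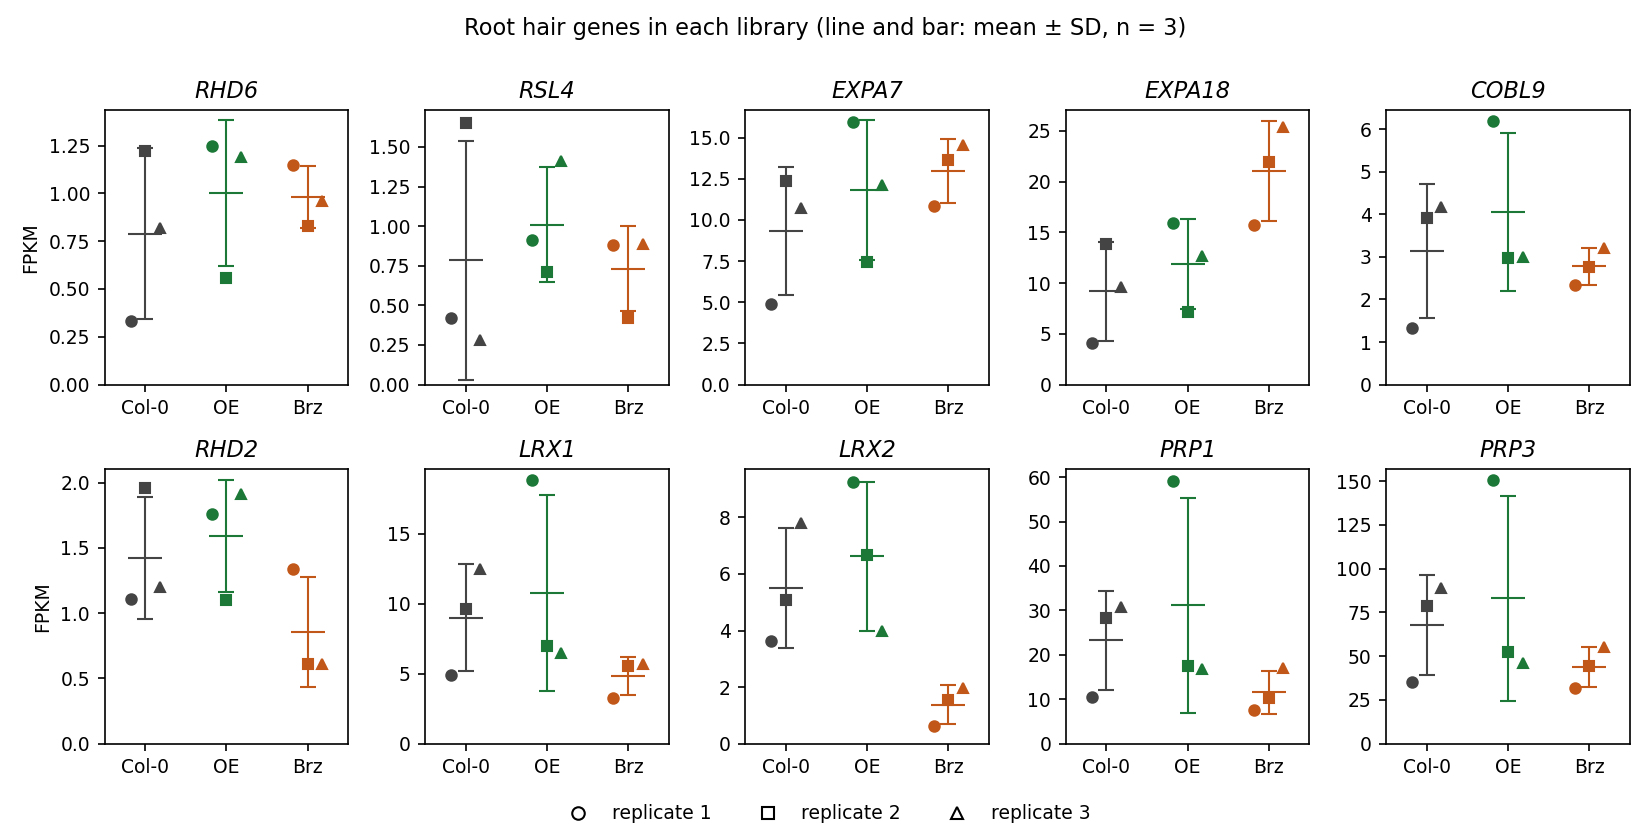
FPKM of each root hair gene in the 9 libraries, with 1 panel per gene, its own linear scale from 0, a symbol per replicate and the mean ± SD of 3 libraries per group. EXPA18 in the Brz-treated group (15.70 to 25.39) lies above Col-0, LRX2 in that group (0.63 to 1.97) lies below both other groups, and Col-0 replicate 1 is the lowest Col-0 point in all panels but RSL4.

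The libraries of 1 group differed in hair genes together. Col-0 replicate 1 was the lowest of its group in 9 of the 10 genes, with a median of 1.05 log2 units below the mean of the other Col-0 libraries (-1.05), whereas over all tested genes this median was -0.01. MIR394A OE replicate 1 was the highest of its group in 8 of 10 (median 0.71, against -0.02 over all tested genes), and MIR394A OE replicate 2 was the lowest in 6. Among Brz-treated libraries replicate 3 was the highest in 8 of 10 and replicate 1 the lowest in 7.

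Other hair genes followed the same libraries. Of 27 tested genes on a list of 30 other hair wall and root hair specific (RHS) genes, 27 had their lowest Col-0 value in replicate 1, with a median difference of -0.85 log2 units from the other Col-0 libraries. In MIR394A OE replicate 1 held the highest value of 24 of the 27 (median 0.85) and replicate 2 the lowest of 23 (-0.78). The 14 tested relatives of the 10 genes that are known mainly from other tissues followed these libraries in part. Col-0 replicate 1 was the lowest in 3 and the highest in 4 of them (median -0.12), whereas MIR394A OE replicate 1 was the highest in 9 (median 0.32) and replicate 3 the lowest in 10.

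Markers of other root tissues moved in part with these libraries. The 8 endodermis markers summed to 87.47 FPKM in Col-0 replicate 1 against 128 and 127.7 in replicates 2 and 3, and to 171.2, 145.1 and 155 in MIR394A OE. The 4 root cap markers summed to 1.20 in Col-0 replicate 1 against 2.81 and 2.05, and to 2.6, 1.23 and 3.4 in MIR394A OE, where replicate 1 was not the highest. The 3 meristem markers summed to 0.75 against 1.25 and 0.88, and to 1.07, 0.64 and 1.02 in MIR394A OE. Summed FPKM of the 5 stele markers did not set Col-0 replicate 1 apart, with 94.85 between 100.5 and 82.94. The sum of the 3 cortex markers was lowest there, with 1790 against 2262 and 2073. Such sums lean on the most abundant marker. Medians of log2(FPKM + 1), each marker centred on its mean over 9 libraries, gave another order for stele and cortex. Stele was lowest in Col-0 replicate 1 (0.12 against 0.52 and 0.39), and cortex was not (0.38 against 0.17 and 0.65). In RNA of whole seedlings, fewer hair cells and less RNA per hair cell cannot be told apart, and the part of root tissue in these differences was not tested.

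**Figure D2:**
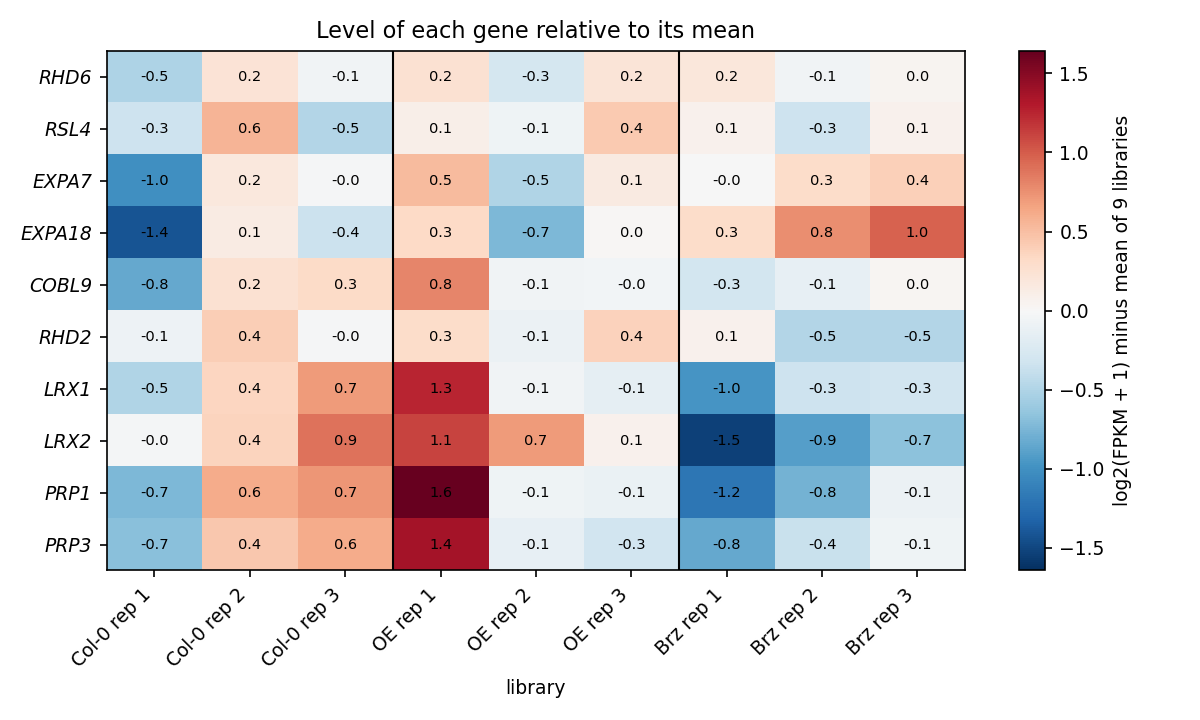
Level of each root hair gene in each library as log2(FPKM + 1) minus the mean of the gene over 9 libraries, with red above and blue below that mean and vertical lines between groups. Col-0 replicate 1 is below the mean in all 10 rows and MIR394A OE replicate 1 above it in all 10, while the Brz-treated columns are red for EXPA18 and blue for LRX1, LRX2, PRP1 and PRP3.

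Brz-treated seedlings had more EXPA18 and less LRX2 transcript than untreated Col-0, and neither RHD6 nor RSL4, which act upstream, passed a test. Of the 9 genes tested (RSL4 was below the filter), 1 was called higher and 1 lower at an adjusted p under 0.05, 2 in all, against 41.9% of all tested genes (13.2% higher and 28.7% lower). The share of hair genes called is thus no larger than that of the transcriptome, which differed widely with Brz. Their median log2 fold change was -0.39, and that of all tested genes -0.22. With the length trend removed 0 of the 9 were called, against 23.5% of all tested genes, and the sign of their median turned, to 0.21 beside 0.0002 over all tested genes. The groups did not overlap for EXPA18 and LRX2 and overlapped for the other 7 tested genes and for RSL4. Over all tested genes, 50.1% had groups that did not overlap, 18.1% with Brz higher and 32.0% with Brz lower.

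EXPA18 and EXPA7 encode alpha-expansins that loosen the hair wall. EXPA18 measured 4.07, 13.85 and 9.60 FPKM in Col-0 replicates 1 to 3, 15.91, 7.11 and 12.68 in MIR394A OE, and 15.70, 21.97 and 25.39 in Brz-treated Col-0. Each Brz-treated library exceeded each Col-0 library, and Brz-treated replicate 1 lay just below the highest MIR394A OE library. Relative to Col-0 the log2 fold change with Brz was 1.22 ± 0.36 (SE, adjusted p = 0.019), with means of 21.0 ± 4.91 and 9.17 ± 4.90 FPKM (SD, n = 3). This call rests on several libraries. Without Col-0 replicate 1 the log2 fold change was 0.79 (adjusted p = 0.065), without Brz-treated replicate 2 it was 1.18 (0.066), without Brz-treated replicate 3 it was 1.08 (0.074), and with the length trend removed 1.14 (0.051).

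EXPA7 measured 4.92, 12.34 and 10.71 FPKM in Col-0, 15.94, 7.44 and 12.13 in MIR394A OE, and 10.82, 13.61 and 14.53 in Brz-treated Col-0. The Brz-treated values sat in the upper part of the Col-0 range and above it, and the groups overlapped. The difference was 0.51 ± 0.31 on the log2 scale (adjusted p = 0.19, 95% interval -0.16 to 1.18), and without Col-0 replicate 1 it was 0.15.

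The LRX proteins join leucine-rich repeats to an extensin domain and sit in the wall of the hair. LRX2 measured 3.63, 5.09 and 7.81 FPKM in Col-0, 9.24, 6.68 and 3.97 in MIR394A OE, and 0.63, 1.53 and 1.97 in Brz-treated Col-0. All Brz-treated libraries were below all others. The log2 fold change against Col-0 was -1.45 ± 0.31 (adjusted p = 0.0042), with means of 1.38 ± 0.68 and 5.51 ± 2.12 FPKM. It stayed between -1.67 and -1.20 and was called with any 1 library left out. With the length trend removed it was -0.95 ± 0.38 (adjusted p = 0.095), and with trends in length and GC content removed -0.81 (adjusted p = 0.060).

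LRX1 measured 4.92, 9.60 and 12.50 FPKM in Col-0, 18.81, 6.96 and 6.5 in MIR394A OE, and 3.25, 5.58 and 5.69 in Brz-treated Col-0. Col-0 replicate 1 lay among the Brz-treated libraries, and the other Col-0 libraries lay above them. The log2 fold change against Col-0 was -0.73 ± 0.38 (adjusted p = 0.14), without Col-0 replicate 1 it was -1.06 (adjusted p = 0.047), and after removal of the length trend it was -0.13.

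PRP1 and PRP3 are proline-rich wall proteins of root hairs. PRP1 measured 10.55, 28.32 and 30.87 FPKM in Col-0, 59.12, 17.42 and 16.82 in MIR394A OE, and 7.48, 10.24 and 16.96 in Brz-treated Col-0. Apart from Col-0 replicate 1, the Brz-treated libraries were below the untreated Col-0 libraries. The difference was -0.89 ± 0.48 on the log2 scale (adjusted p = 0.15), and -1.35 (adjusted p = 0.039) without Col-0 replicate 1. With the length trend removed the difference was again -0.89 (adjusted p = 0.25).

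PRP3 measured 35.45, 78.77 and 88.94 FPKM in Col-0, 150.42, 52.45 and 46.07 in MIR394A OE, and 31.69, 44.63 and 54.95 in Brz-treated Col-0. It resembled PRP1 in order of libraries, with MIR394A OE replicate 1 far above the rest, and its groups overlapped. The difference between Brz-treated and untreated Col-0 was -0.55 ± 0.42 on the log2 scale (adjusted p = 0.30). Leaving out Col-0 replicate 1 gave -0.95 (adjusted p = 0.084), and the difference shrank to -0.30 when Col-0 replicate 3, and to -0.34 when Brz-treated replicate 1, was dropped.

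COBL9, the membrane-anchored protein of oriented cellulose deposition, measured 1.32, 3.91 and 4.17 FPKM in Col-0, 6.20, 2.97 and 3.00 in MIR394A OE, and 2.35, 2.76 and 3.22 in Brz-treated Col-0. The Brz-treated libraries lay inside the range of Col-0. The difference was -0.05 ± 0.31 on the log2 scale (adjusted p = 0.91, 95% interval -0.72 to 0.63), and 0.41 with the length trend removed.

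RHD2, the oxidase of the hair tip, measured 1.11, 1.96 and 1.20 FPKM in Col-0, 1.76, 1.1 and 1.91 in MIR394A OE, and 1.34, 0.61 and 0.61 in Brz-treated Col-0. Brz-treated replicates 2 and 3 were below all other libraries and replicate 1 was not. The log2 fold change was -0.39 ± 0.21 (adjusted p = 0.15), and -0.57 (adjusted p = 0.039) without Brz-treated replicate 1. For this transcript, the longest of the set, the sign turned with the length trend removed, to 0.35 ± 0.14 (adjusted p = 0.086). The mean was 1.42 ± 0.47 FPKM in Col-0 and 0.85 ± 0.42 with Brz. At such low values log2(FPKM + 1) understates a difference, and the trend removed is not scaled down to match. The turned sign is thus not a measured rise.

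The transcription factors were low everywhere. RHD6 measured 0.33, 1.22 and 0.82 FPKM in Col-0, 1.25, 0.56 and 1.19 in MIR394A OE, and 1.15, 0.83 and 0.96 in Brz-treated Col-0, and RSL4 0.42, 1.65 and 0.28, then 0.91, 0.71 and 1.41, then 0.88, 0.42 and 0.89. The groups overlapped for both. RHD6 differed by 0.17 ± 0.21 on the log2 scale (adjusted p = 0.52), and RSL4, tested only with no filter on low values, by 0.02 ± 0.26 (adjusted p = 0.97).

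**Figure D3:**
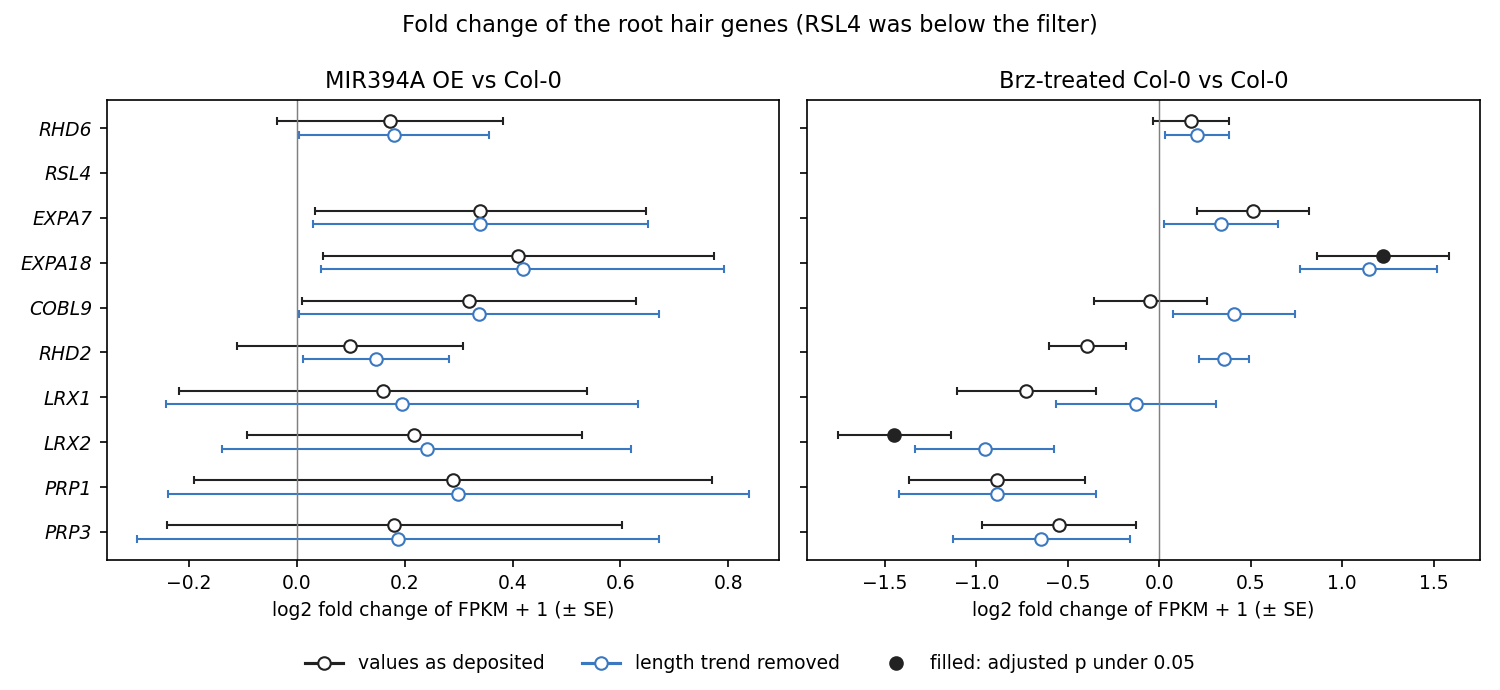
Log2 fold change of FPKM + 1 (± SE) for each tested root hair gene in MIR394A OE (left) and Brz-treated Col-0 (right), each against untreated Col-0, from the values as deposited (black) and with the length trend removed (blue); filled points had an adjusted p under 0.05. All 9 points on the left are positive and open, and on the right EXPA18 (1.22) and LRX2 (-1.45) are filled as deposited and none are filled with the trend removed.

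In MIR394A OE, none of the hair genes differed detectably from Col-0. With limma 0 of 9 were called, against 0.034% of all tested genes, and 0 of 9 had an unadjusted p under 0.05, which 2.27% of all tested genes had. The groups overlapped for all 10 genes (5.77% of all tested genes had groups that did not). All 9 log2 fold changes were positive, from 0.10 ± 0.21 (RHD2) to 0.41 ± 0.36 (EXPA18), with a median of 0.22 against -0.01 over all tested genes. The 9 genes share the libraries described above, so this agreement in sign is not 9 separate observations. Without Col-0 replicate 1 the log2 fold changes of 8 of these genes were below 0, from -0.22 (PRP3) to -0.02 (EXPA7 and EXPA18) and nearer 0 for LRX2, and only RHD2 stayed positive, at 0.01. The 95% intervals still allowed sizeable differences, for example -0.38 to 1.20 for EXPA18 and -0.75 to 1.34 for PRP1.

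MIR394A OE against Brz-treated Col-0, the comparison of the overexpressor with the treated wild type, gave 1 call. LRX2 was higher in MIR394A OE, by 1.67 ± 0.31 on the log2 scale (adjusted p = 0.0025), where 37.8% of all tested genes were called, 25.8% as higher in MIR394A OE. Its mean was 6.63 ± 2.64 FPKM in MIR394A OE and 1.38 ± 0.68 with Brz. Groups did not overlap for LRX2 and LRX1, both higher in MIR394A OE, against 46.5% of all tested genes, 30.4% in that direction. LRX1 differed by 0.89 ± 0.38 (adjusted p = 0.082), PRP1 by 1.18 ± 0.48 (0.071), RHD2 by 0.49 ± 0.21 (0.082) and EXPA18 by -0.81 ± 0.36 (0.094). With the length trend removed LRX2 stood at 1.19 (adjusted p = 0.0504), and 0 of the 9 were called against 20.4% of all tested genes. This comparison shares its libraries with those above.

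Ratios of 2 hair genes within a library cancel what the genes share, such as the amount of hair tissue, if they share it. They were chosen after the values were seen and are given as a description, with no test. How many ratios of other gene pairs separate the groups in this way was not counted. Between Brz-treated and untreated Col-0, 50.1% of single tested genes had groups that did not overlap. EXPA18 relative to PRP3, transcripts of 1251 and 1221 bases, was 0.115, 0.176 and 0.108 in Col-0, 0.106, 0.136 and 0.275 in MIR394A OE, and 0.495, 0.492 and 0.462 in Brz-treated Col-0. All Brz-treated ratios exceeded all others, and Col-0 replicate 1, which was low in both genes, lay between the other Col-0 libraries. The geometric mean was 3.73-fold higher with Brz than in untreated Col-0.

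EXPA7 relative to PRP1 was 0.466, 0.436 and 0.347 in Col-0, 0.270, 0.427 and 0.721 in MIR394A OE, and 1.45, 1.33 and 0.857 in Brz-treated Col-0, 2.86-fold higher with Brz than in Col-0. EXPA18 relative to LRX2 was 10.7-fold and EXPA7 relative to LRX1 2.66-fold higher, but here the LRX transcripts are also longer. Within pairs of relatives some ratios differed as well. EXPA18 relative to EXPA7 went from 0.827, 1.12 and 0.896 in Col-0 to 1.45, 1.61 and 1.75 with Brz, and LRX2 relative to LRX1 from 0.738, 0.530 and 0.625 to 0.194, 0.274 and 0.346. PRP1 relative to PRP3 overlapped between these groups. EXPA7, EXPA18, LRX1, PRP1 and PRP3 all carry the root hair element shown above, and LRX2 does not. The carriers thus include the gene that rose and others with log2 fold changes below 0 that were not called.

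**Figure D4:**
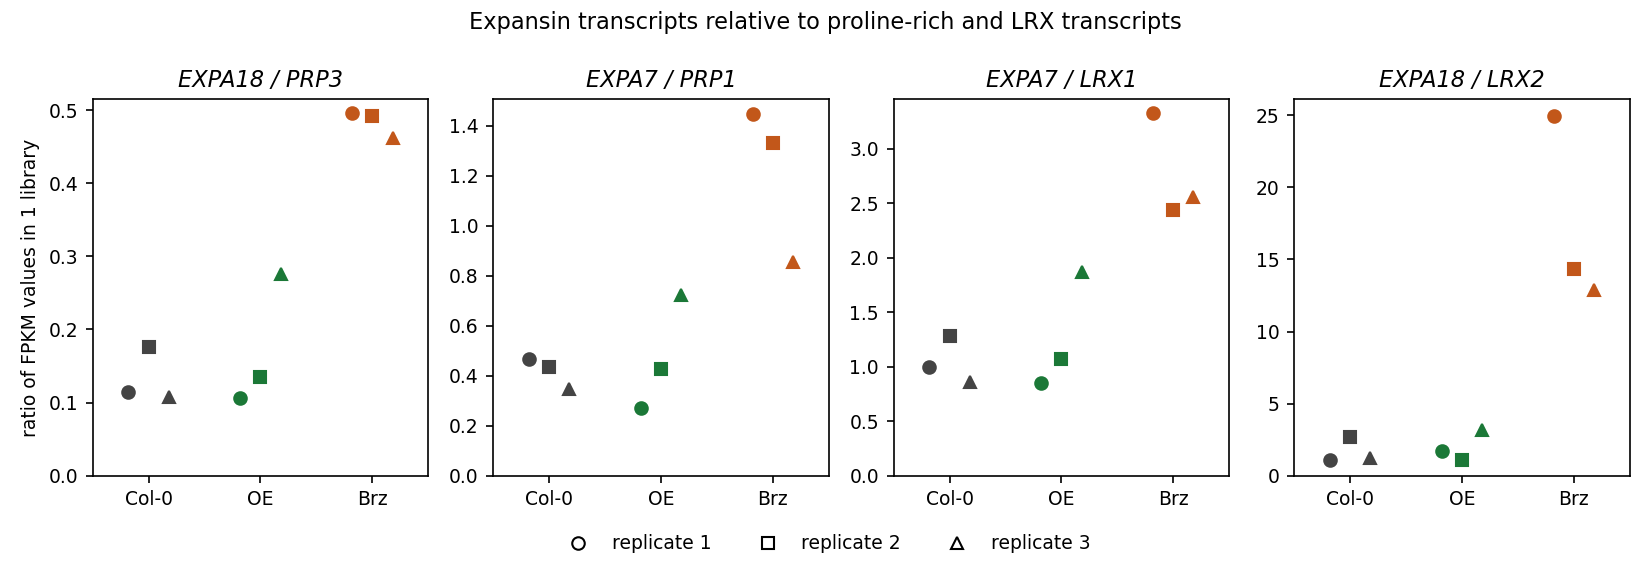
Ratio of the FPKM values of an expansin gene to those of a proline-rich or LRX gene within each library (linear axes from 0, a symbol per replicate). In all 4 panels, of pairs chosen after the values were seen, the 3 Brz-treated points lie above the 6 others. For EXPA18 over PRP3 they sit between 0.462 and 0.495, and the others between 0.106 and 0.275.

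The wider hair pathway was read from 4 lists of hair genes, chosen by role. Upstream of RHD6 stand the genes that decide which epidermal cells form hairs. Of 10 tested patterning genes (12 listed), 3 rose and 4 fell with Brz, beside 13.2% higher and 28.7% lower of all tested genes, with a median of -0.26 (-0.22 over all genes). CPC, a mobile MYB protein that promotes hair fate, rose from 2.44 ± 0.54 to 5.03 ± 0.38 FPKM (log2 fold change 0.82 ± 0.19, adjusted p = 0.0067), and its relative ETC1 rose too (0.60 ± 0.17, adjusted p = 0.015). GL2, which blocks hair fate, fell (-0.64 ± 0.19, adjusted p = 0.017), as did TTG1 (-0.97 ± 0.16), the receptor-like kinase gene SCM (-1.05 ± 0.21) and the zinc finger gene JKD (-1.41 ± 0.22, adjusted p = 9.2e-04). With the length trend removed 0 rose and 3 fell, beside 13.1% higher and 10.4% lower of all genes, namely TTG1 (-0.70), JKD (-0.94) and MYB23 (-0.51), whereas CPC stood at 0.37 (adjusted p = 0.068) and GL2 at 0.02. Some of these genes also act in leaf hairs. The 3 trichome markers summed to 6.29 to 7.93 FPKM in Col-0 and 3.68 to 5.43 with Brz, and their part was not tested.

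Of the other hair bHLH factors, relatives of RHD6 and RSL4, 4 of 7 listed genes were tested. LRL3 rose with Brz, where 13.2% of all tested genes rose. It measured 2.42, 4.38 and 4.05 FPKM in Col-0 and 6.70, 7.13 and 7.57 with Brz, with no overlap. The log2 fold change was 0.84 ± 0.24 (adjusted p = 0.014), and 0.81 (0.025) after removal of the length trend. It was not called with Col-0 replicate 1 or Brz-treated replicate 3 left out. LRL2 went the other way, from 6.27 ± 1.02 FPKM in Col-0 to 4.26 ± 0.43 with Brz, and was not called (-0.46 ± 0.23, adjusted p = 0.13). Its groups did not overlap, as for 32.0% of all tested genes in that direction. LRL1 stood at 0.08 ± 0.16 (adjusted p = 0.68). RSL2, which drives hair growth together with RSL4, measured 0.34, 0.92 and 0.61 FPKM in Col-0, 0.75, 0.38 and 0.99 in MIR394A OE, and 1.37, 1.37 and 2.06 with Brz. It passed the filter on low values only through the Brz-treated group, where it is high, so its difference is given as values with no test.

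Of 19 tested genes of tip growth (23 listed), 1 rose and 8 fell, beside 13.2% and 28.7% of all tested genes, with a median of -0.37. With median-ratio scaling 4 rose and 4 fell (23.7% and 21.4% of all genes) with a median of -0.12, and with the length trend removed the sign of the median turned, to 0.11. RALF1, a peptide signal, rose from 28.2 ± 5.75 to 56.6 ± 9.52 FPKM (log2 fold change 0.99 ± 0.24, adjusted p = 0.0075), and remained called after removal of the length trend (0.59, adjusted p = 0.041). FER, the receptor kinase that binds RALF1, fell from 46.0 ± 3.53 to 25.6 ± 7.39 FPKM (-0.85 ± 0.18), as did the cellulose synthase-like genes CSLD3 (-0.99 ± 0.20) and CSLD2 (-0.79 ± 0.20), RHD3 (-1.09 ± 0.24), which shapes the endoplasmic reticulum, and the receptor-like kinase gene MRH1 (-0.74 ± 0.18). None of the 8 decreases was called with the trend removed, where FER stood at -0.13 and CSLD3 at -0.11. Several of these genes are used in all growing cells and not in hairs alone.

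Of the 27 tested other hair wall and RHS genes, 3 rose and 2 fell with Brz, no larger shares than the 13.2% and 28.7% of all tested genes. Their median was 0.39, beside -0.39 for the 9 genes above and -0.22 over all genes. With the length trend removed the medians were 0.41, 0.21 and 0.0002, and without Col-0 replicate 1 that of the list was 0.11. RHS13 measured 18.52, 35.53 and 19.74 FPKM in Col-0 and 43.62, 58.82 and 71.94 with Brz (log2 fold change 1.24 ± 0.33, adjusted p = 0.012). The xyloglucan-modifying genes XTH14 (0.93 ± 0.33, adjusted p = 0.040) and XTH12 (1.05 ± 0.35, adjusted p = 0.032) rose as well. The extensin gene EXT12 fell (-1.13 ± 0.40, adjusted p = 0.038), as did RHS10 (-0.68 ± 0.25, adjusted p = 0.049), a proline-rich receptor-like kinase gene. Whether reads were shared among the extensin genes or among the XTH genes, which are close relatives, was not tested.

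These counts moved with single libraries. Leaving out Col-0 replicate 1 gave 1 higher and 4 lower, leaving out Col-0 replicate 2 gave 6 and 0, and leaving out Brz-treated replicate 3 gave 0 and 0. With median-ratio scaling, which shifted the median of all genes from -0.22 to -0.01, the counts were 5 and 0, beside 23.7% higher and 21.4% lower of all genes. After removal of the length trend they were 3 and 0, beside 13.1% and 10.4%. Those 3 were RHS2 (0.80), RHS8 (1.07) and RHS16 (0.62), none of which had been called before. As deposited they stood at 0.48, 0.32 and -0.09. RHS8 measured 0.69 ± 0.36 FPKM in Col-0 and 1.08 ± 0.19 with Brz, and RHS16 0.95 ± 0.45 and 0.81 ± 0.23. The trend removed is not scaled down for such low genes, so these calls are not measured rises.

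In MIR394A OE against Col-0, 0 genes of these lists were called with limma, beside 0.034% of all tested genes, and 1 had an unadjusted p under 0.05, a patterning gene. Medians lay between -0.0044 (patterning) and 0.16 (other hair wall genes). The latter turned to -0.09 without Col-0 replicate 1 and to -0.11 without MIR394A OE replicate 1.

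**Figure D5:**
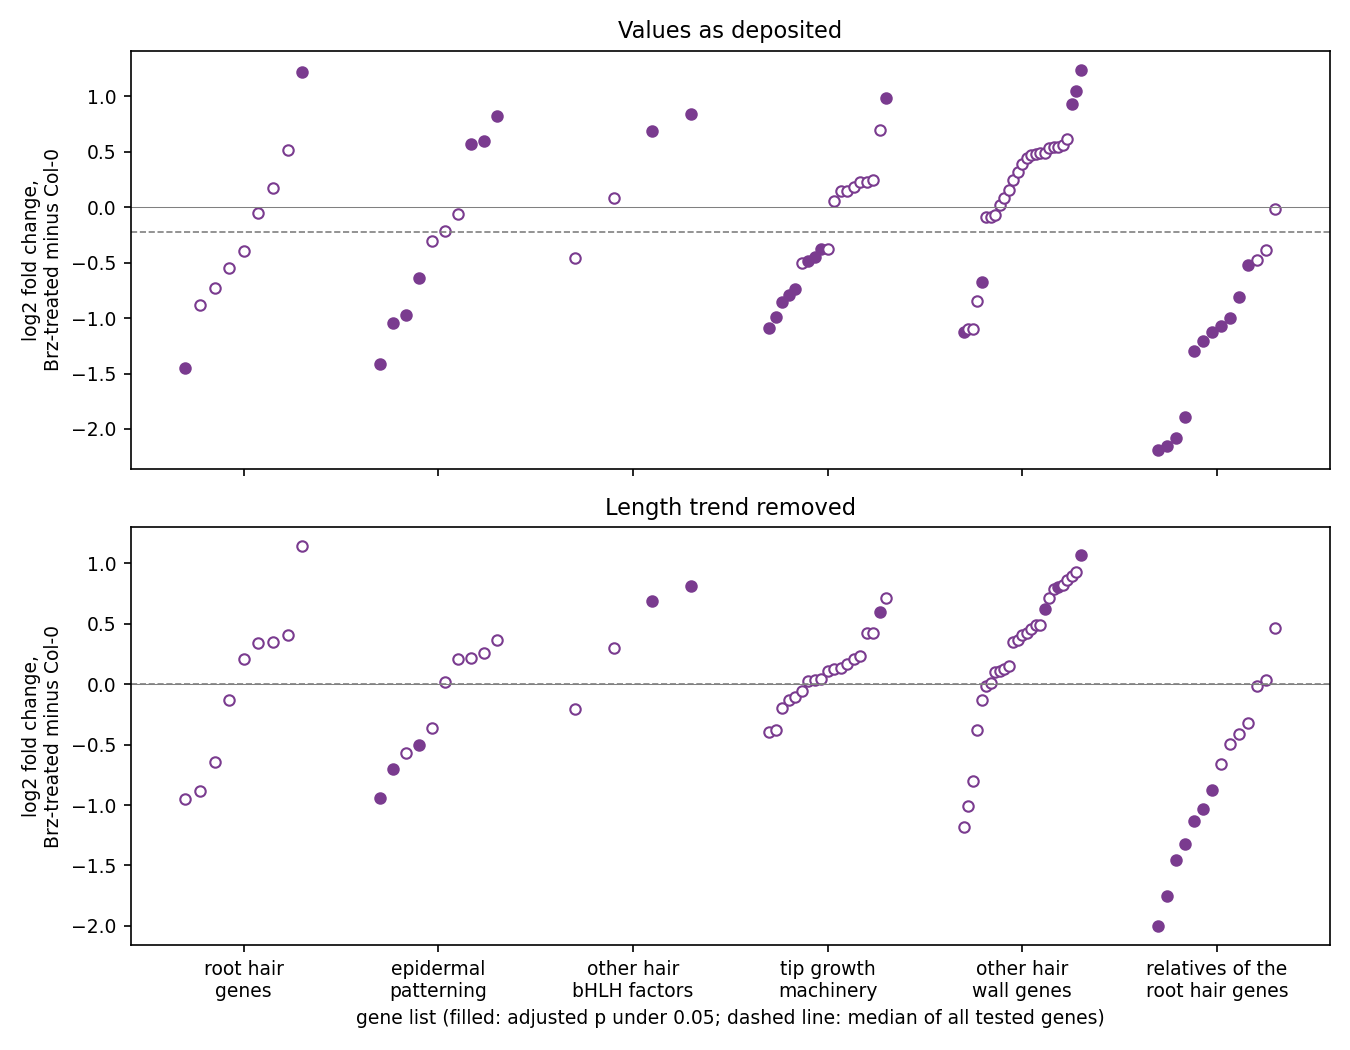
Log2 fold change with Brz, relative to Col-0, for each tested gene of the root hair set, the 4 lists of other hair genes and the relatives, sorted within each list, from the values as deposited (top) and with the length trend removed (bottom); filled points had an adjusted p under 0.05 and the dashed line is the median of all tested genes (-0.22 and 0.00). The relatives lie at or below 0 in the upper panel, with a median of -1.1, while the other hair wall genes have a median of 0.39; RSL2 is among the filled bHLH points, although it passed the filter only through the Brz-treated group.

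Most relatives of the 10 genes that are known mainly from other tissues were lower with Brz. Of 14 tested (15 listed; RBOHB was below the filter), 0 rose and 11 fell, where 28.7% of all tested genes fell, with a median of -1.1, and 7 fell with the length trend removed, where 10.4% of all tested genes fell. Among the LRX genes, LRX3 fell from 114 ± 44.5 to 23.7 ± 3.77 FPKM, LRX4 from 65.8 ± 19.3 to 13.4 ± 2.83, LRX5 from 50.4 ± 14.7 to 12.6 ± 1.13 and LRX6 from 10.01 ± 1.60 to 3.8 ± 0.87. Their log2 fold changes of -2.16, -2.19, -1.89 and -1.20 stand beside -1.45 for LRX2 and -0.73 for LRX1, and all 4 were also called with the trend removed (-1.46, -2.0, -1.13 and -0.88).

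Of the proline-rich proteins, PRP2 fell by 1.30 ± 0.20 on the log2 scale and PRP4 by 2.08 ± 0.25, both also called with the trend removed, beside -0.89 for PRP1 and -0.55 for PRP3. The expansins differed among themselves. EXPA8 fell (-1.0 ± 0.14), EXPA1 measured 438 ± 39.4 FPKM without and 431 ± 24.0 with Brz (-0.02 ± 0.12), EXPA17 stood at -0.47 ± 0.37, and the hair expansin EXPA18 rose. RBOHD (-1.12 ± 0.18), COB (-0.81 ± 0.16), COBL7 (-1.07 ± 0.23) and COBL8 (-0.52 ± 0.16) fell as deposited and were not called with the trend removed, and RBOHF was not called (-0.39 ± 0.25).

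Some root markers differed with Brz and others did not. The 5 stele markers summed to 82.94 to 100.5 FPKM in Col-0, 70.87 to 76.77 in MIR394A OE and 24.24 to 38.56 with Brz, with no overlap. Their medians on the centred log2 scale overlapped between Col-0 (0.12 to 0.52) and MIR394A OE (0.11 to 0.37). Those with Brz (-0.64 to -0.19) lay below both. The 3 cortex markers summed to 1790 to 2262, 2215 to 2708 and 1537 to 2038 in the same order, overlapping between Col-0 and Brz. Medians of the centred log2 values of these 3 markers did not overlap between Col-0 (0.17 to 0.65) and Brz (-0.355 to -0.07). The 2 markers of hairless epidermis (GL2 and WER) summed to 4.04 to 5.09, 3.38 to 5.23 and 2.32 to 3.62. Their medians on the centred log2 scale overlapped between Col-0 (-0.0041 to 0.35) and Brz (-0.42 to 0.055). The 8 endodermis markers summed to 87.47 to 128 in Col-0 and 96.51 to 119.5 with Brz, and the 4 root cap markers to 1.20 to 2.81 and 2.02 to 3.42, both overlapping. In MIR394A OE the endodermis markers summed to 145.1 to 171.2, above every library of the other groups. Their median log2 fold change against Col-0 was 0.46. With limma 0 of the 8 were called, and 4 had an unadjusted p under 0.05, against 2.27% of all tested genes. The root cap sums in MIR394A OE (1.23 to 3.4) overlapped both other groups. No marker of these lists was at 0 in any library. Their part in the hair gene results was not tested.

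The genes whose profiles were most like that of the hair genes were found over all 9 libraries, as the smallest root mean square difference from the mean centred profile of the 9 tested genes among 12767 genes that reached 5 FPKM. The median difference of these candidates was 0.52 log2 units. The closest were AT1G45015 (0.16), the lectin gene EULS3 (0.17), AT2G45750, AT5G46890, CYP710A1, which encodes a sterol desaturase, AT1G19900 and AT2G39040 (0.19 each), the root iron transporter gene IRT2, AT1G62660 and AT5G37540 (0.20 each). EULS3 measured 9.05, 21.34 and 22.42 FPKM in Col-0, 25.68, 17.36 and 14.65 in MIR394A OE, and 10.11, 11.12 and 13.17 with Brz. It had its lowest Col-0 value in replicate 1 and its highest MIR394A OE value in replicate 1, like the hair genes. This likeness follows from how the gene was chosen and is no separate observation. None of the 10 was on the hair lists (0 of 10). Of the hair genes themselves, COBL9 was nearest to their mean profile (0.10) and EXPA18 (0.69) and LRX2 (0.62) were farther from it than the median candidate.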

How the data were processed

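The authors deposited 1 table of FPKM values, fragments scaled by transcript length and depth, for 9 libraries, per the file headers. The submitters' processing notes name Bowtie2 and HISAT, with neither role nor version. Genome build, FPKM program and use of strand: not given in the sources used here. Of the transcript identifiers, 99.566% matched TAIR10.1, from which coordinates, lengths and upstream sequence were read. Between 86.9% and 90.1% of low FPKM values of single-transcript genes lay within 0.1 of a whole read at the fitted depth.

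FPKM values are not counts, so genes with at least 1 FPKM in at least 3 libraries (17662) were tested as log2(FPKM + 1) with limma 3.58.1 (R 4.3.3; lmFit, eBayes with trend, group means of 9 libraries, 6 residual degrees of freedom, two-sided), with Benjamini-Hochberg adjustment over all tested genes and a threshold of 0.05. On this scale the changes of low genes are understated. The length trend was a loess curve on log2 transcript length (span 0.5), removed from each library, with 17530 tested genes having a length. The curve was the same for low and abundant genes of a length. It can thus overcorrect low genes, whose changes are understated on this scale. Alternatives were quantile normalization, median-ratio scaling, no intensity trend, no filter or 5 FPKM, pseudocounts of 0.1 and 5, library weights, the replicate number as a block, left-out libraries, only the groups compared and a threshold of 0.01. Removal of both length and GC trends and the counts of list genes under alternatives were added after seeing the data. The fit was also run on simulated data with independent noise per gene and library. Those data held no length trend and no deviation shared by the genes of a library, so they cannot show how the fit handles either.

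The genes and lists were chosen with earlier results of these data known. Named are all 10 genes, called list members (the 6 with the smallest p where more were called), all relatives and the 10 most similar profiles. MYB23, RHS2, RHS8 and RHS16 were added to show calls with the trend removed, and RSL2, LRL3, RHS13 and EULS3 were given by library after their values were seen. LRL1 and LRL2 were added so that all tested bHLH factors are named.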

Additional observations from a re-analysis of the deposited data

How the results depend on the processing

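In MIR394A OE against Col-0, 0 root hair genes were called under the alternatives tried except library weights, which gave 4 (EXPA7, EXPA18, COBL9 and LRX2). The weights ran from 0.15 (Brz-treated replicate 1) to 5.54 (MIR394A OE replicate 1), so that fit leans on the library highest in hair genes. For Brz-treated against untreated Col-0, the 2 calls became 0 with the length trend removed, 4 with library weights, 1 at an adjusted p under 0.01, 1 with length and GC trends removed, and 1 to 3 with any 1 library left out. For MIR394A OE against Brz-treated Col-0, the 1 call became 0 with the length trend removed, 6 with library weights, 3 with Col-0 replicate 2 and MIR394A OE replicate 3 left out, 4 with only the groups compared, and 1 to 3 with any 1 library left out. Without MIR394A OE replicate 3 the 3 calls were LRX2, LRX1 and PRP1, and without Brz-treated replicate 1 the 2 calls were LRX2 and RHD2.

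The sign of differences near 0 turned. Against untreated Col-0, COBL9 in Brz-treated seedlings went to 0.15 with median-ratio scaling, 0.24 with quantile normalization, 0.41 with the length trend removed, 0.45 with library weights, 0.12 with Col-0 replicate 2 and MIR394A OE replicate 3 left out, and 0.49 with length and GC trends removed. RHD2 went to 0.35 and 0.36 with the length trend and with both trends removed, and PRP3 to 0.10 with library weights. For MIR394A OE against Brz-treated Col-0, RHD6 went to 0.0032 with a pseudocount of 5 and 0.16 with library weights, EXPA7 to 0.0017 with the length trend removed and 0.0185 with library weights, COBL9 to -0.071 and -0.16, and RHD2 to -0.21 and -0.22, each with the length trend and with both trends removed. With single libraries left out, log2 fold changes of MIR394A OE against Col-0 ran from -0.0264 to 0.34 (RHD6), -0.0189 to 0.61 (EXPA7), -0.0247 to 0.75 (EXPA18), -0.0539 to 0.52 (COBL9), -0.29 to 0.42 (LRX1), -0.025 to 0.50 (LRX2), -0.29 to 0.59 (PRP1) and -0.35 to 0.49 (PRP3). For Brz-treated against untreated Col-0 they ran from -0.0249 to 0.34 (RHD6) and -0.42 to 0.16 (COBL9), and for MIR394A OE against Brz-treated Col-0 from -0.10 to 0.17 (RHD6) and -0.40 to 0.10 (EXPA7). The cause was not tested.

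With the replicate number as a block, 0, 2 and 1 of the root hair genes were called in the 3 comparisons, as without it, but the other hair wall genes called with Brz went from 3 higher and 2 lower to 1 and 0. The numbers were not taken as pairs, since correlations of the deviations of libraries with the same number ran from -0.64 to 0.15. Between libraries of different groups and numbers they ran from -0.22 to 0.55, the highest for Col-0 replicate 2 and MIR394A OE replicate 3. Libraries of different groups thus shared part of their deviations under other numbers, and the source of this was not tested.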
